A study of Homo sapiens with 6 samples.

Results

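TMEM97, PGRMC1 and PGRMC2 encode membrane proteins of the endoplasmic reticulum (ER) that bind sterols, heme or drugs, and TMEM97 is the sigma-2 receptor. These 3 genes were chosen by symbol, for what they encode, from the 31762 genes of the deposited table, and each symbol stood on 1 row there. Earlier results of these data were known when the choice was made. RNA was sequenced from H460 cells, a human lung large cell carcinoma line with a wild-type genotype label. There were 3 control libraries and 3 libraries of cells exposed to 20 µM fluoxetine, a selective serotonin reuptake inhibitor, for 24 h. What the control cells received is not given in the labels. The labels also do not say whether the libraries of a group came from separate cultures, so the p-values measure the spread between these libraries, which may be technical.

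The sigma-2 receptor was known for decades only as a binding site for many cationic drugs before it was assigned to TMEM97. The protein belongs to the EXPERA family together with EBP, a sterol isomerase of cholesterol synthesis, it binds the lysosomal cholesterol transporter NPC1, and its gene is known to be regulated by sterols. PGRMC1 and PGRMC2 are cytochrome b5-like proteins of the membrane-associated progesterone receptor (MAPR) family that bind heme. PGRMC1 supports cytochrome P450 enzymes such as the lanosterol demethylase, and it acts with TMEM97 in the uptake of LDL, while PGRMC2 carries heme to the nucleus.

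TMEM97 (ENSG00000109084) lies on the plus strand of chromosome 17, at 28319095 to 28328685 in GRCh38. PGRMC1 (ENSG00000101856) is on the plus strand of chromosome X, at 119236245 to 119244466, and PGRMC2 (ENSG00000164040) on the minus strand of chromosome 4, at 128269237 to 128288829. The 250 bases before each start are shown so that TMEM97, whose RNA rose, can be compared by sequence with PGRMC1 and PGRMC2, for which no change was called. The sequences are those of RefSeq on GRCh38.p14, which held all 3 genes, and they run from 5′ to 3′ on the strand of the gene. Capitals mark the CCAAT box, the motif bound by NF-Y, on either strand.
TMEM97, chr17:28318950-28319199: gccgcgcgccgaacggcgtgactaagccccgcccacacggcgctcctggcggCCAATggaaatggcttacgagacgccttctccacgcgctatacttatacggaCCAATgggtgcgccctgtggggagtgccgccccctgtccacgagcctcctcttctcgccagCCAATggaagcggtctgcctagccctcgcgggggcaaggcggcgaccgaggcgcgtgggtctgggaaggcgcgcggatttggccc
PGRMC1, chrX:119236035-119236284: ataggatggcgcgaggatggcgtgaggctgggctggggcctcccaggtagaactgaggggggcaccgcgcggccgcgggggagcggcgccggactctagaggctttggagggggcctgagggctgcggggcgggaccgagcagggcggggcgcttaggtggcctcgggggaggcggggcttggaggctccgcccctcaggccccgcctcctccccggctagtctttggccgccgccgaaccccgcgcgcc
PGRMC2, chr4:128287814-128288063: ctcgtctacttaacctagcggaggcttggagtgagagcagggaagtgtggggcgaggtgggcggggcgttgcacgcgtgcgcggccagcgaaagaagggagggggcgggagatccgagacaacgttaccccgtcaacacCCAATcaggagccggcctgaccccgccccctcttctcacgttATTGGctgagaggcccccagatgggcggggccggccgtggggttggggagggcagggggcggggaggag

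The TMEM97 window held 3 CCAAT boxes, that of PGRMC2 held 2 and that of PGRMC1 held 0. Among the 35116 RefSeq promoter windows of the same length, 32.01% held at least 1 and 2.93% held 3 or more. The GC box GGGCGG, the motif of Sp1, was found 2, 3 and 5 times before TMEM97, PGRMC1 and PGRMC2. Of all windows, 42.64% held at least 1 GC box and 13.88% held 3 or more. The SREBP motif TCACNCCAC (held by 0.88% of all windows), the E-box CACGTG (6.34%) and the ATF4 and C/EBP motif TGATGNAA (3.14%) had no match in any of these windows. Both strands were searched for exact matches, and the motifs did not need to be apart from one another. Variants of the motifs and sites outside the windows were not searched. GC content was 68.8% in the TMEM97 window, 76.4% in that of PGRMC1 and 68.4% in that of PGRMC2, against a median of 58.0% over all windows. The start of PGRMC2 in the deposited table lies 1016 bases upstream of the RefSeq start, outside the printed window, while for TMEM97 and PGRMC1 the starts differ by 105 and 40 bases and the start in the table falls within the window.

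The libraries held 16157507 to 27823667 counts, and every fluoxetine library was less deep than every control library. Levels are given in CPM, counts scaled to the size of their library after TMM normalization, and a mean is followed by ± its SD over n = 3 libraries unless said otherwise. Epithelial keratins were abundant (KRT8, KRT18 and KRT19, with control means of 511 to 1841 CPM), whereas the epithelial markers EPCAM and CDH1 had at most 11 and 1 counts in any library. The sums of the marker lists were scaled to library size alone, without TMM normalization. The summed level of the epithelial list was 3050 to 3959 CPM in control and 2698 to 3248 CPM in treated libraries, and 1 of its 3 tested genes was called, KRT18, which fell (log2FC -0.72, edgeR FDR = 0.00162). The fibroblast list summed to 12.9 to 14.2 CPM in control and 16.4 to 17.8 CPM in treated libraries, with 1 of 3 tested genes called, LUM, which rose (log2FC 0.88, FDR = 0.00448). A call means a false discovery rate (FDR) under 0.05. Of all tested genes, 7.76% were called higher and 5.32% lower. The immune list, of which 2 of 5 genes were analysed here, stayed at or under 2.40 CPM and the endothelial list, with 3 of 4, at or under 0.186 CPM in every library. The part of these levels in the results was not tested, and in bulk RNA fewer cells of a type and less RNA per cell cannot be told apart.

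TMEM97 RNA rose with fluoxetine, whereas no change of PGRMC1 or PGRMC2 passed the test. The rise of TMEM97 was small, 1.22-fold (95% interval 1.09 to 1.36), but each treated library lay above each control library. Changes are given as the log2 fold change of fluoxetine over control (log2FC), with the false discovery rate (FDR), which is the Benjamini-Hochberg adjusted p-value of edgeR's quasi-likelihood test. A gene was called where its FDR over the 15646 tested genes was under 0.05, by which 1 of the 3 genes was higher and 0 lower. Of all tested genes, 13.1% were called, 7.76% as higher and 5.32% as lower. None of the 3 genes reached a fold change of 2. Of all tested genes, 1.25% were called higher and 0.147% called lower with a fold change of at least 2.

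For TMEM97, replicates 1, 2 and 3 held 2909, 2501 and 3788 counts in the control group and 2499, 2894 and 2766 in the fluoxetine group. After normalization its level was 131.7, 130.1 and 136.2 CPM in the control libraries. In the fluoxetine libraries it was 151.5, 171.9 and 160.8 CPM. The lowest treated library was thus above the highest control library, as it was for 17.5% of all tested genes, while in 14.4% all treated libraries lay below. The means were 132.7 ± 3.19 CPM and 161.4 ± 10.2 CPM (log2FC 0.28 ± 0.07 SE, edgeR FDR = 0.0301). Counting error alone was at least 1.62% and at most 2% of the level in a library, beside a spread between libraries of 2.40% in the control and 6.32% in the fluoxetine group.

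The rise of TMEM97 kept its direction in every alternative fit, with log2 fold changes between 0.20 and 0.30, but its call was fragile. When 1 library was left out, TMEM97 was called in 1 of 6 fits, the one without control replicate 3 (edgeR FDR = 0.0275). Without control replicate 1 or 2, or without fluoxetine replicate 1, 2 or 3, the FDR was 0.112, 0.167, 0.105, 0.112 and 0.148, in that order, and without the filter on low counts it was 0.0600. With all libraries thinned to the depth of the smallest, the log2FC of TMEM97 was 0.25 (edgeR FDR = 0.0455).

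The last exons of TMEM97 overlap those of IFT20, a gene of ciliary transport on the opposite strand, over 361 of 3034 exon bases (11.9%). Whether the counting used strand is not given in the sources used here. IFT20 stood at 10.6 ± 1.20 CPM without and 10.6 ± 1.90 CPM with fluoxetine, far below TMEM97. The processed pseudogene TMEM97P1 had a mean of 0.33 counts per library. No annotated exon of another gene overlaps PGRMC1 or PGRMC2.

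PGRMC1, the partner of cytochrome P450 enzymes, was the most abundant of the 3 genes. Its level was 263.2, 258 and 262 CPM in control replicates 1, 2 and 3. It was 259.5, 292.5 and 257.4 CPM in fluoxetine replicates 1, 2 and 3, so that only replicate 2 lay above the control range and replicate 3 lay below it. The means were 261.1 ± 2.71 CPM and 269.8 ± 19.7 CPM (log2FC 0.05 ± 0.07 SE, edgeR FDR = 0.702). The 95% interval of its fold change ran from 0.925 to 1.16. Without fluoxetine replicate 2 the log2 fold change of PGRMC1 was -0.05, and without control replicate 2 it was about 0 (-0.0013).

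PGRMC2, the heme chaperone, stood at 86.77, 77.56 and 79.13 CPM in control replicates 1, 2 and 3. In fluoxetine replicates 1, 2 and 3 it stood at 83.78, 93.59 and 87.73 CPM. The groups overlapped, since control replicate 1 was above fluoxetine replicate 1. The means were 81.2 ± 4.93 CPM and 88.4 ± 4.94 CPM (log2FC 0.12 ± 0.08 SE, edgeR FDR = 0.355). The interval of the fold change, 0.963 to 1.23, covers the estimate for TMEM97, so the missed threshold does not show that PGRMC2 stayed the same. Fluoxetine replicate 2 was the highest treated library for all 3 genes.

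**Figure D1:**
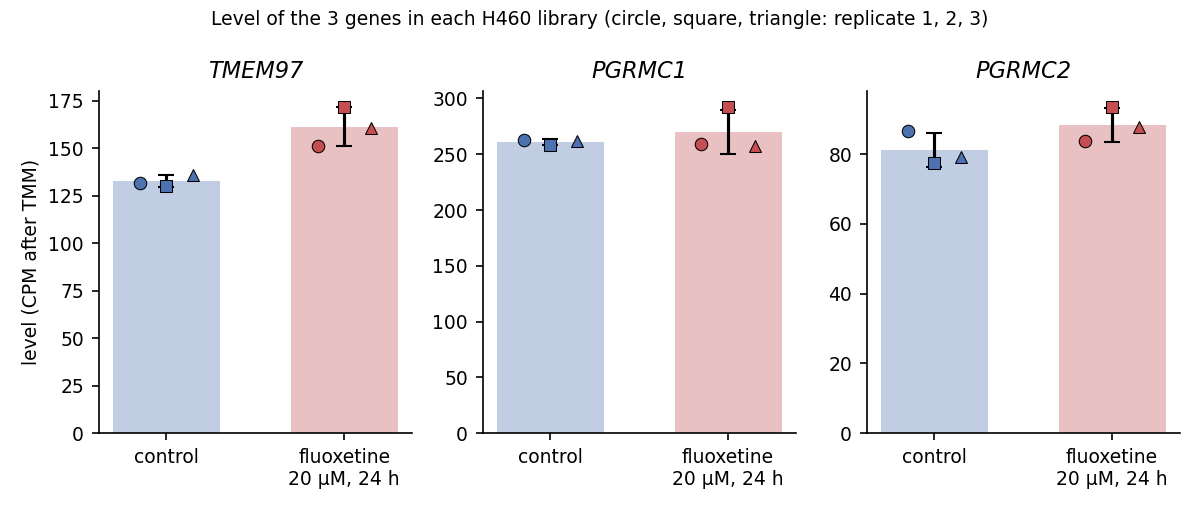
Level of TMEM97, PGRMC1 and PGRMC2 in CPM after TMM normalization (vertical axes, from 0) in control and fluoxetine-treated H460 cells, with bars for the mean of 3 libraries, error bars for the SD and symbols for replicates 1, 2 and 3. For TMEM97 the treated libraries (151.5 to 171.9 CPM) lie above the control libraries (130.1 to 136.2 CPM), while for PGRMC1 and PGRMC2 the groups overlap.

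**Figure D2:**
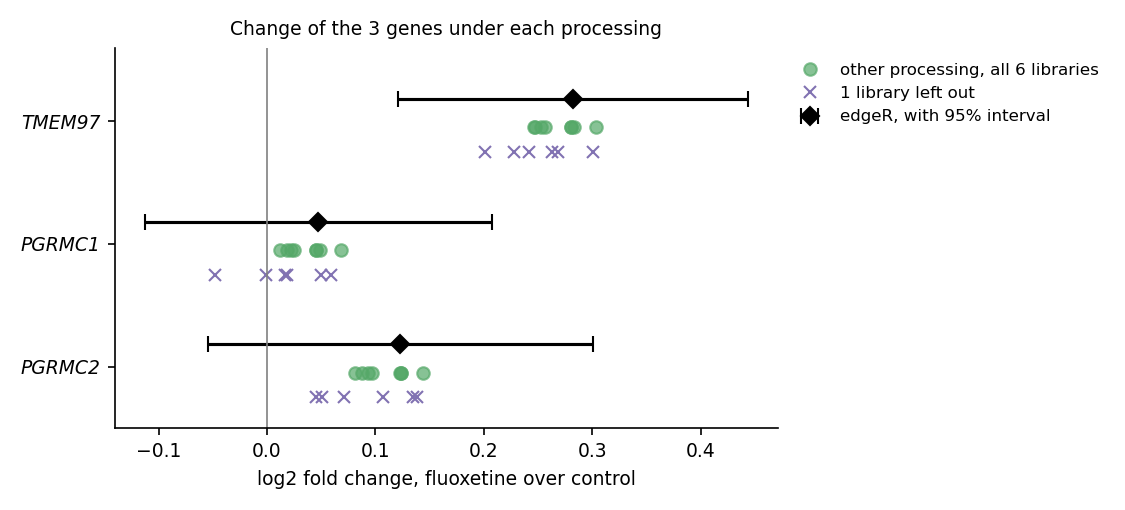
Log2 fold change of fluoxetine over control (horizontal axis) for the 3 genes, as estimated by edgeR with its 95% interval (diamonds), under other processing of all 6 libraries (circles) and with 1 library left out (crosses). Estimates for TMEM97 stay between 0.20 and 0.30, those for PGRMC2 between 0.05 and 0.14, and those for PGRMC1 lie on both sides of 0.

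Levels of different genes were compared per kilobase of annotated exon (GENCODE release 29). In control cells PGRMC1 stood at 136 ± 1.41 CPM per kb, TMEM97 at 43.7 ± 1.05 and PGRMC2 at 17.5 ± 1.07. The order PGRMC1, TMEM97, PGRMC2 held in all 6 libraries, whose ranges of 134.1 to 152.4, 42.88 to 56.65 and 16.77 to 20.23 CPM per kb did not overlap. By this level PGRMC1 was at percentile 98.4, TMEM97 at percentile 89.2 and PGRMC2 at percentile 79.4 of the tested genes with a known exon length. With the length of the principal transcript instead, a choice made after the data were seen, the control levels were 136.6, 51.7 and 21.4 CPM per kb in the same order.

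Whether the genes responded unequally was asked from the ratio of their counts within a library, which needs no normalization. TMEM97 reads per PGRMC1 read were 0.5006, 0.5042 and 0.52 in control replicates 1, 2 and 3. They were 0.5837, 0.5875 and 0.6248 in fluoxetine replicates 1, 2 and 3, with no overlap. The ratio thus went from 0.508 ± 0.0103 to 0.599 ± 0.0227, a difference of 0.24 on the log2 scale. The ratio of TMEM97 to PGRMC2 was 1.5183, 1.6774 and 1.7218 in the control and 1.8082, 1.8363 and 1.833 in the fluoxetine libraries, again without overlap, a log2 difference of 0.16. Both differences had p = 0.1 in a two-sided exact permutation test (adjusted p = 0.15 over the 3 pairs), and 0.1 is the smallest value that 3 libraries against 3 allow. The ratio of PGRMC1 to PGRMC2 was 3.22 ± 0.165 in control and 3.05 ± 0.104 in treated libraries, a log2 difference of -0.08 with overlapping groups (exact permutation p = 0.3, adjusted p = 0.3).

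**Figure D3:**
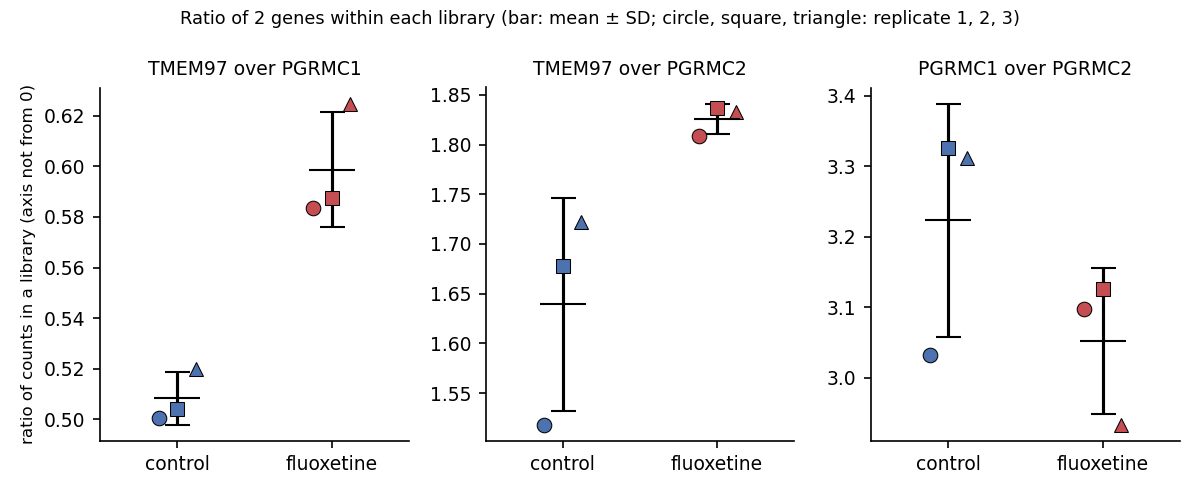
Ratio of the counts of 2 genes within each library (vertical axes, which do not start at 0), with symbols for replicates 1, 2 and 3 and bars for the mean ± SD of 3 libraries. Both ratios with TMEM97 on top are higher in each treated library than in each control library, whereas the ratio of PGRMC1 to PGRMC2 overlaps between the groups.

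Relatives of the 3 genes were examined next. All gene lists were chosen with earlier results of these data known. Their counts of called genes therefore describe the lists and are no test of them. In the MAPR family, 1 of 4 genes was called higher and 0 lower, beside 7.76% and 5.32% of all tested genes. This was CYB5D2 (neuferricin), a gene of low level that went from 7.67 ± 1.03 CPM to 10.9 ± 0.642 CPM (log2FC 0.51, edgeR FDR = 0.0362). Its call was lost in each of the 6 fits without 1 library (edgeR FDR between 0.0740 and 0.126). NENF (neudesin) had a log2 fold change of -0.08 (FDR = 0.728). Of the 5 EXPERA genes, 3 were abundant enough to be tested. EBP rose from 93.5 ± 6.42 CPM to 141.6 ± 11.8 CPM (log2FC 0.60, edgeR FDR = 0.00186), beside 0.28 for TMEM97. EBPL, which resembles EBP but lacks its isomerase activity, had a log2 fold change of -0.09 (FDR = 0.677). TM6SF1 had 1 to 9 counts per library and TM6SF2 was not analysed here.

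Among genes that act with TMEM97 and PGRMC1 in LDL uptake and lysosomal cholesterol handling, 5 of 6 were called higher and 0 lower. The shares over all tested genes were 7.76% and 5.32%. NPC1, the lysosomal transporter that TMEM97 binds, rose by 0.42 on the log2 scale (edgeR FDR = 0.0138), and its soluble partner NPC2 by 1.65 (FDR = 1.98e-05). LIPA, the acid lipase that frees cholesterol from LDL, rose by 0.69 (FDR = 2.90e-04). The median log2 fold change of these genes was 0.65, beside 0.03 over all tested genes. Each time 1 of control replicates 1 and 2 and fluoxetine replicates 1 and 3 was left out, the FDR of NPC1 was between 0.0618 and 0.0994.

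TMEM97 was compared with the genes that SREBP2, the transcription factor of cholesterol supply, is known to drive. Of 23 such genes tested, 21 were called higher and 0 lower, beside 7.76% and 5.32% of all tested genes. Their median log2 fold change was 1.32. The log2 fold changes of 22 of these 23 genes were larger than that of TMEM97, and the smallest among those called higher was the 0.60 of EBP. HMGCS1, which makes HMG-CoA, rose by 2.65 on the log2 scale, INSIG1, which holds SREBP2 in the ER, by 2.40, MSMO1, a sterol demethylase, by 2.11 and LSS, which forms lanosterol, by 1.81. HMGCS1 shares 15% of its exon bases with an antisense gene. Of the 1214 genes called higher in the whole table, 1190 had a larger log2 fold change than TMEM97, and the median of the 1214 was 0.56. These are values set side by side, and the difference between TMEM97 and the SREBP2 targets was not tested.

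Other sterol-linked proteins that bind drugs were called higher in 7 of 11 cases and lower in 0, beside 7.76% and 5.32% of all tested genes. DHCR7, a reductase of cholesterol synthesis that is part of the microsomal antiestrogen binding site, rose by 1.35 on the log2 scale (edgeR FDR = 4.95e-06). SQLE, the squalene epoxidase, rose by 1.42 (FDR = 1.04e-06). This list shares 7 of its genes with that of the SREBP2 targets and is no independent evidence beside it.

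Genes of proteins that PGRMC1 binds or works with were called higher in 2 of 11 cases, INSIG1 and EGFR, and lower in 1. Of all tested genes, 7.76% were called higher and 5.32% lower. INSIG1 is also counted among the SREBP2 targets. EGFR, a growth factor receptor, rose by 0.49 (edgeR FDR = 0.0296), a call that was lost without control replicate 1 or 2 or fluoxetine replicate 1 or 3 (FDR between 0.117 and 0.147). SERBP1, an RNA-binding protein that also binds PGRMC1, fell from 1094 ± 74.5 CPM to 838.6 ± 19.9 CPM (log2FC -0.38, edgeR FDR = 0.00781). POR, the reductase that feeds electrons to cytochrome P450 enzymes, had a log2 fold change of 0.35 (FDR = 0.0753), and was called higher without the filter on low counts (FDR = 0.0144) and with the replicate number as a block (FDR = 0.00054). The median of this list was 0.11.

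Of the genes of heme synthesis, transport and breakdown, the pathway in which PGRMC2 acts, 3 of 18 were called higher and 0 lower, beside 7.76% and 5.32% of all tested genes, with a median log2 fold change of -0.04. HMOX1, the heme oxygenase that degrades heme, went from 44.5 ± 4.75 CPM to 83.6 ± 12.6 CPM (log2FC 0.91, edgeR FDR = 0.00117). BACH1, a heme-binding repressor of HMOX1, rose by 0.62 (FDR = 0.00955) and FLVCR1, described as a heme exporter, by 0.47 (FDR = 0.0118). The call of BACH1 was lost without control replicate 2 or fluoxetine replicate 1 (FDR = 0.0623 and 0.0686), and that of FLVCR1 without control replicate 1 or 2 or fluoxetine replicate 1 (FDR between 0.0525 and 0.111). ABCB6, a porphyrin transporter, had a log2 fold change of -0.68 (FDR = 0.122) and shares 54.7% of its exon bases with a gene on the same strand, so that its count is uncertain.

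The other progesterone receptors were scarce in these cells. By edgeR 0 of 5 tested genes were called in either direction, beside 13.1% of all tested genes. At an unadjusted p-value under 0.05 from edgeR's test, 2 of the 5 passed, beside 28.7% of all tested genes. These were PAQR5 (log2FC 0.42, FDR = 0.0653) and PAQR6 (log2FC 0.89, FDR = 0.1), the latter with only 15 to 45 counts per library. PAQR5 was called higher in the edgeR fit without control replicate 3 (FDR = 0.0201), in which PAQR7 was called lower (log2FC -0.56, FDR = 0.0498), and with the replicate number as a block both PAQR5 (FDR = 0.00488) and PAQR6 (FDR = 0.0352) were called higher. Among these membrane progestin receptors, PAQR7, through which PGRMC1 is known to work, stood at 5.33 ± 1.34 CPM in control cells and had a log2 fold change of -0.33 (FDR = 0.371), and PAQR8 one of 0.51 (FDR = 0.198). The level of PGR, the nuclear receptor, was 1.48 ± 0.188 CPM in control cells.

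**Figure D4:**
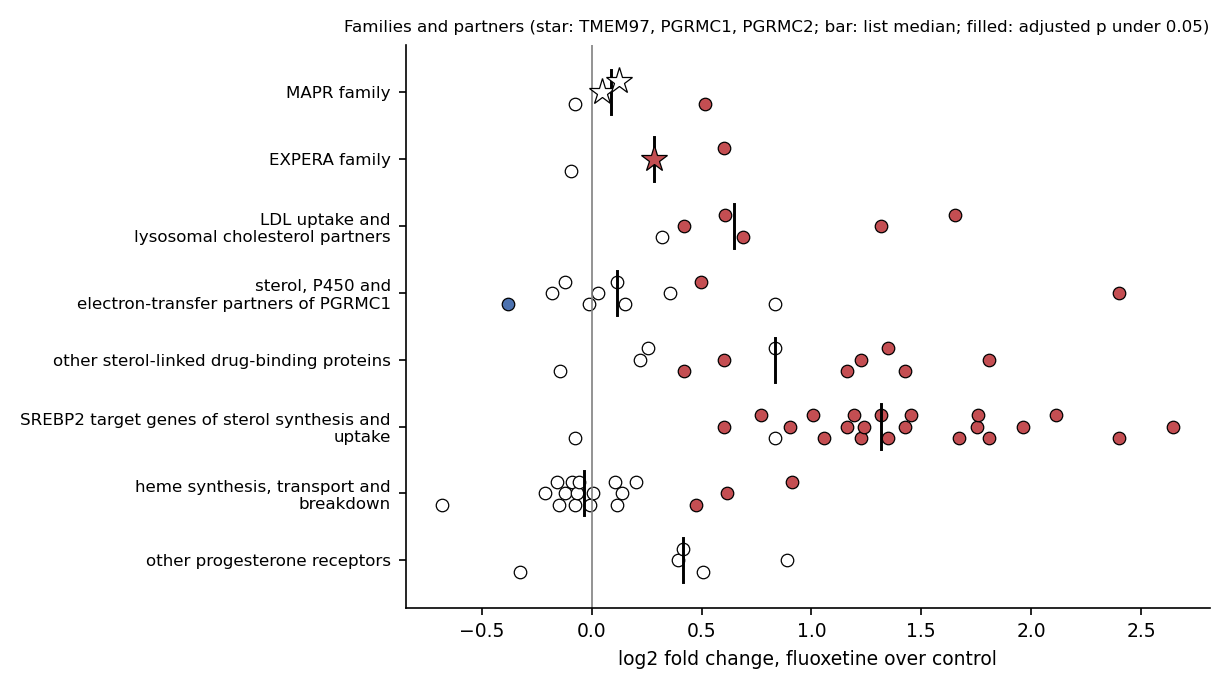
Log2 fold change of fluoxetine over control (horizontal axis) for each tested gene of the families and partner lists, with stars for TMEM97, PGRMC1 and PGRMC2, filled symbols for an FDR under 0.05 and a bar for each list's median. TMEM97 at 0.28 lies left of 22 of the 23 SREBP2 targets, whose median is 1.32, while PGRMC1 and PGRMC2 lie near 0 with most heme genes.

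The genes whose pattern over the 6 libraries was most like each of the 3 were found by Pearson's r of log2 CPM among 12395 genes with a mean of at least 50 counts. For TMEM97 these were CRMP1, NAPEPLD, DERL1 and CFL2, with r between 0.992 and 0.994, and 161 genes had an r above 0.95. DERL1 takes part in ER-associated degradation and CFL2 is a cofilin. CFL2 was the only 1 of the 4 called higher (log2FC 0.31, edgeR FDR = 0.0297), a call held with 1 library left out only in the fit without control replicate 3. All 4 were picked for their likeness to TMEM97 over the same libraries, so their changes are no independent evidence beside it. The genes most like PGRMC1 were HIST1H3H, FUCA2, FBXO7 and SRD5A3, with r between 0.970 and 0.983, and 7 genes had an r above 0.95. PGRMC1 stood at 292.5 CPM in fluoxetine replicate 2 and at 257.4 to 263.2 CPM in the other libraries. Its r values therefore lean on that library, and r without it was not computed. Without it, the log2 fold changes of these 4 genes were -0.15, -0.04, -0.09 and -0.01, in that order. The genes most like PGRMC2 were BAG1, ADCK1, MGST1 and TIMMDC1, with r between 0.982 and 0.994, and 29 genes had an r above 0.95. These correlations are descriptions over 6 libraries, in which treatment and depth went together, since each treated library was less deep than each control library.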

How the data were processed

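RNA-seq libraries of H460 cells, 3 per group, were compared. The authors deposited raw counts per gene and library, neither normalized nor pooled. Columns with the authors' own log2 fold changes and p-values were not used. The submitters' processing notes name fastp 0.20.0, HISAT2 2.1.0, HTSeq 0.10.0 and DESeq2 1.18.1, and the build and strand setting are not given in the sources used here. Of the 31762 genes, 31635 are in GENCODE release 29 (GRCh38), and 96.81% of these have the same start and end there.

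edgeR 4.0.16 under R 4.3.3 was fitted to the counts (quasi-likelihood test, TMM factors 0.985 to 1.02, filterByExpr, no covariate) and Benjamini-Hochberg adjustment over 15646 genes. Intervals cover 95%. The limit that 3 counts set lay between 0.108 and 0.186 CPM. Permutation tests used scipy 1.17.1. Groups and replicate numbers came from the sample titles. Alternatives were DESeq2 1.42.0, limma-voom (limma 3.58.1), RLE, library size only, no filter, the replicate block, a minimum of 10 counts per library, 1 library left out, and equal depth (thinned to 16157507 counts).

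The 3 genes and all gene lists were chosen with earlier results of these data known. Named were the 3 genes, both families, the 4 smallest p-values of each further list, and the 4 genes most like each of the 3. Some genes that this rule names are not reported here. PGR, KRT18 and LUM were named after their values were seen. The test was tried on simulated data.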

Additional observations from a re-analysis of the deposited data

How the results depend on the processing

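The log2 fold change of TMEM97 stayed above 0 in all 14 alternative fits and fell short of the adjusted threshold in 6 of them, at 0.25 without a filter on low counts and in 5 of the 6 fits that left out 1 library, which gave 0.20 to 0.30 in all. PGRMC2 (0.05 to 0.14 with 1 library left out) and PGRMC1 (-0.0481 to 0.0588) were called in none of 14, and PGRMC1 changed sign without control replicate 2 (-0.0013) and without fluoxetine replicate 2 (-0.0481). The number of all genes called higher was 409 to 1627 and that called lower 163 to 2006 with 1 library left out, and 1516 were called lower without a filter. Both numbers moved by more than 1.5 times without control replicate 1 or 2 or fluoxetine replicate 1 or 3, and the second also without control replicate 3. Of the 68 tested genes of the related lists, 31 were called higher and 1 lower in the main fit, beside 7.76% and 5.32% of all tested genes. With 1 library left out, 24 to 32 genes of these lists were called higher and 1 to 3 lower. With the length of the principal transcript the control level of TMEM97 was 51.7 CPM per kb and that of PGRMC2 21.4. The differences of the 3 ratios kept their sign in every alternative tried, with 0.20 to 0.25, 0.10 to 0.19 and -0.12 to -0.05 on the log2 scale when 1 library was left out.

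With the replicate number as a block, 2231 genes were called higher and 1787 lower, beside 1214 and 833 in the main fit. The log2 fold changes of TMEM97, PGRMC1 and PGRMC2 were then 0.28, 0.05 and 0.12, with the same calls as without the block. The edgeR FDR of TMEM97 was 0.00675 with the block and 0.0301 without it. Same-numbered libraries deviated together with correlations of 0.03, 0.12 and 0.39, the last being the highest between any control and any fluoxetine library. Control replicate 1, however, correlated best with fluoxetine replicate 2 (0.32). These few values cannot settle whether the numbers pair the samples, and the main fit did not pair them. The paired ratios differed by 0.24, 0.16 and -0.08, with exact sign-flip p of 0.25, 0.25 and 0.5. The value 0.25 is the smallest that this test allows with so few pairs.

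Of 546 values of the other 39 named genes, 501 kept direction and call, 25 lost a call, 9 gained one and 11 changed sign. Calls were gained by POR, PAQR5 and NAPEPLD (2 alternatives each) and by PAQR6, PAQR7 and ADCK1 (1 each), of which 5 came with the replicate block. Signs changed for IFT20 with library size only (0.0213) and with 10 counts in every library (0.0003), and with 1 library left out it ranged from -0.1393 to 0.1176, above 0 without control replicate 1 or fluoxetine replicate 3. FBXO7 changed sign without a filter (-0.0042), with equal depth (-0.0071), and without control replicate 2 or fluoxetine replicate 2 (range -0.0859 to 0.0517). HIST1H3H (-0.1468 to 0.5197), FUCA2 (-0.0427 to 0.1652) and SRD5A3 (-0.0103 to 0.1073) did so without fluoxetine replicate 2. The cause was not tested.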
